A study of Homo sapiens with 6 samples.

Results

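Mitophagy receptors are proteins that mark a mitochondrion for removal by autophagy. The 9 genes described here are BNIP3, BNIP3L, FUNDC1, FUNDC2, BCL2L13, FKBP8, PHB2, PINK1 and OPTN. Their rows were found by gene symbol among the 30676 genes of the deposited table, and each of the 9 has one; the set was chosen with earlier results of these data known. The cells, labelled as the colorectal cancer line HCT116 with a wild-type genotype, were kept for 24 hours at 1% oxygen. In 3 libraries the cells received 10 µM GIA, which the series title describes as a genistein isoflavonoid alkaloid, and in 3 they received 0.1% DMSO, its vehicle. All 6 libraries are therefore from cells at low oxygen, and no library here comes from cells at normal oxygen. The DMSO content is stated for the control libraries only. The labels name no separate cultures, so a p-value measures the spread between these libraries, which may be technical.

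A receptor sits on the mitochondrion and holds a short motif that binds ATG8 proteins (the LC3 and GABARAP families) on the growing autophagosome. BNIP3, BNIP3L, FUNDC1, BCL2L13 and FKBP8 act on the outer membrane without needing ubiquitin, and PHB2 is an inner-membrane protein that is exposed when the outer membrane breaks. In the ubiquitin-dependent arm the kinase PINK1 accumulates on damaged mitochondria and, with the ligase parkin, builds ubiquitin chains that OPTN recognises. BNIP3 and BNIP3L are known targets of hypoxia-inducible factors (HIFs), the transcription factors that respond to low oxygen.

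The cell identity was checked against markers before the receptors were described. The epithelial keratins KRT8, KRT18 and KRT19 had means of 146, 255 and 27.7 FPKM over the 6 libraries (FPKM is the number of fragments divided by gene length and library size). EPCAM and the adhesion protein E-cadherin (CDH1), 2 further epithelial markers, had only 0.252 and 0.0362 FPKM, and the brush-border gene VIL1 was at most 0.0122. The fibroblast markers lumican (LUM), decorin (DCN) and COL1A1 had 173, 12.8 and 2.52 FPKM, while COL3A1 was at most 0.00766. The summed fibroblast markers ranged from 174 to 191 FPKM with DMSO and from 170 to 216 with GIA, and the 8 epithelial markers from 435 to 442 and from 383 to 453. LUM makes up most of the fibroblast sum, and KRT8 and KRT18 most of the epithelial sum. The epithelial genes CLDN3 and CLDN4 had means of only 0.328 and 0.917 FPKM. Leukocyte PTPRC and CD14 and the endothelial genes PECAM1, CDH5 and VWF had at most 0.174 FPKM, while the lysosomal macrophage marker CD68 had 20.2, and the 3 leukocyte markers summed to 17.9 to 24.7 FPKM with DMSO and 17.0 to 23.1 with GIA. The low EPCAM and CDH1 and the high LUM go against the label, so the cells are called by their label only. Library totals were 55725249 to 63542466 estimated counts with DMSO and 64804849 to 67835059 with GIA, so the groups did not overlap in depth. Genes with a count numbered 23479 to 24091 with DMSO and 24221 to 24608 with GIA, most in GIA library 2. The part of depth in the results was not tested.

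No receptor transcript among the 9 was called different between GIA and DMSO. In bulk RNA, a change in the share of a cell type and a change in RNA per cell cannot be told apart. With edgeR's quasi-likelihood test over all 13721 genes tested (mean of at least 0.5 FPKM) and Benjamini-Hochberg adjustment, 0 of 9 were higher and 0 of 9 lower, where 0% of all genes were called. At an unadjusted p under 0.05 there were 0 of the 9, against 4.59% of all genes. In 0 of the 9 did the FPKM ranges of the groups fail to overlap, against 11.2% of all genes. The log2 fold change (GIA over DMSO) was positive for 5 and negative for 4, with a median of 0.01, and the median over all tested genes was 0.00038. The 95% interval lay within 1.5-fold in either direction for 8 of the 9, all but BNIP3. The edgeR test moderates the spread of each gene toward that of other genes, so intervals of genes with a wide spread may be too narrow.

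**Figure D1:**
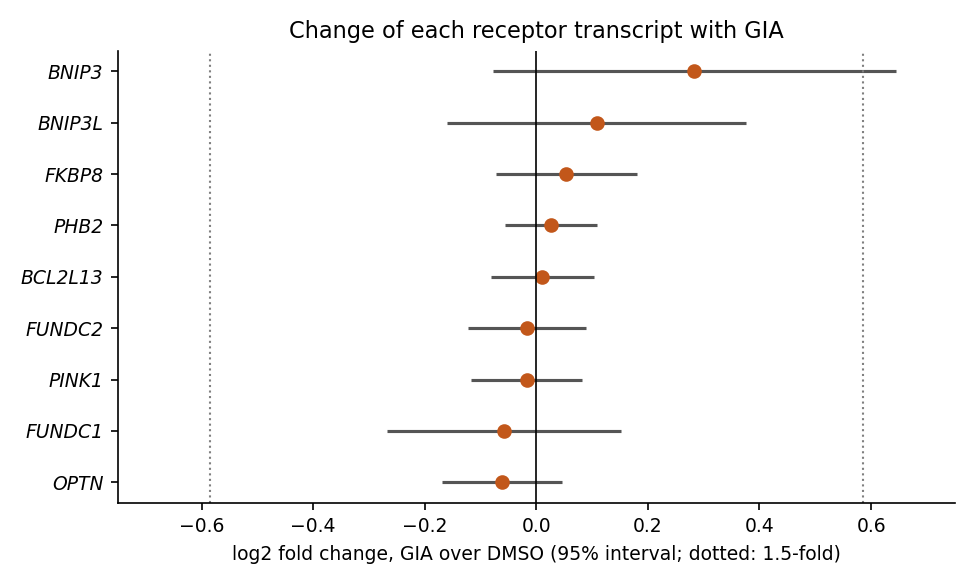
Log2 fold change of each receptor transcript, GIA over DMSO (point), with its 95% interval (line) from 3 libraries in each group. Each of the 9 intervals includes 0, and only that of BNIP3, which ends at 0.64, passes the dotted line at 1.5-fold.

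BNIP3 and BNIP3L are paralogous outer-membrane receptors. BNIP3 (ENSG00000176171, chromosome 10, 131966455 to 131982013, minus strand, GRCh38) had 10.4, 7.04 and 9.08 FPKM in DMSO libraries 1 to 3. In GIA libraries 1 to 3 it had 8.72, 13.2 and 10.5 FPKM. The lowest value was in DMSO library 2 and the highest in GIA library 2, and the other 4 libraries interleaved between 8.72 and 10.5. The log2 fold change was 0.28 (SE 0.16, 95% interval -0.08 to 0.64, edgeR adjusted p = 0.875), an interval from 0.947-fold to 1.56-fold. That interval may be too narrow, because the within-group SD of BNIP3 was wide (20.2% of its mean) and the test moderates it toward other genes. The libraries numbered 2 set its size. Leaving out GIA library 2 gave 0.12, leaving out DMSO library 2 gave 0.14, and leaving out both, an alternative chosen after the values were seen, gave -0.018. Without DMSO library 1 or GIA library 1 it was 0.42 and 0.41, with unadjusted edgeR p of 0.0381 and 0.0226 and an adjusted p of at least 0.469.

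The sequence upstream of BNIP3 is shown because BNIP3 is a known HIF target. HIFs bind a short core that can read ACGTG, and other forms of the core were not searched. A RefSeq promoter window of 300 bases (250 before to 50 after the gene start, GRCh38.p14) was examined for 6 of the 9 receptors. None was examined for BNIP3L, FKBP8 and PINK1, so BNIP3 is not compared with its paralogue here. ACGTG on either strand was held by 1 of the 6 receptors, BNIP3, and by 21.4% of all 35116 windows of that length. Holding it is therefore not particular to BNIP3. The match, in capitals, is the palindrome CACGTG, in which ACGTG and its reverse complement overlap, and which 7.26% of the windows hold. It starts 134 bases before the RefSeq start. The 160 bases printed, chr10:131982014-131982173 on the minus strand, lie beyond the 5′ end of the deposited gene model.
BNIP3: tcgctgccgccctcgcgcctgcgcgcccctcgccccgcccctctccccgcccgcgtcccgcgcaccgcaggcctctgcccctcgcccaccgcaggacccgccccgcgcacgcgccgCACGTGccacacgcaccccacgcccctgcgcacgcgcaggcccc
A match of letters is a description and not evidence of binding, and binding was not measured.

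BNIP3L, also called NIX and known for clearing mitochondria from maturing red blood cells (ENSG00000104765, chromosome 8, 26383054 to 26413127), had 16.2, 13.5 and 13.8 FPKM with DMSO. With GIA it had 13.5, 19.0 and 14.5 FPKM. As for BNIP3, DMSO library 2 was lowest and GIA library 2 highest, and the rest of the values overlapped. The fold change was 0.11 on the log2 scale (SE 0.12, interval -0.16 to 0.38), and -0.049 once GIA library 2 was left out. The ratio of BNIP3 to BNIP3L within a library, which does not depend on how libraries are scaled, was 0.641, 0.522 and 0.657 with DMSO and 0.645, 0.692 and 0.723 with GIA. Means were 0.607 ± 0.0737 and 0.686 ± 0.0392 (SD, n = 3 each), a log2 difference of 0.18 with a two-sided exact permutation p = 0.2, where 0.1 is the smallest possible. The difference was 0.08 without DMSO library 2, the library with the lowest ratio.

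**Figure D2:**
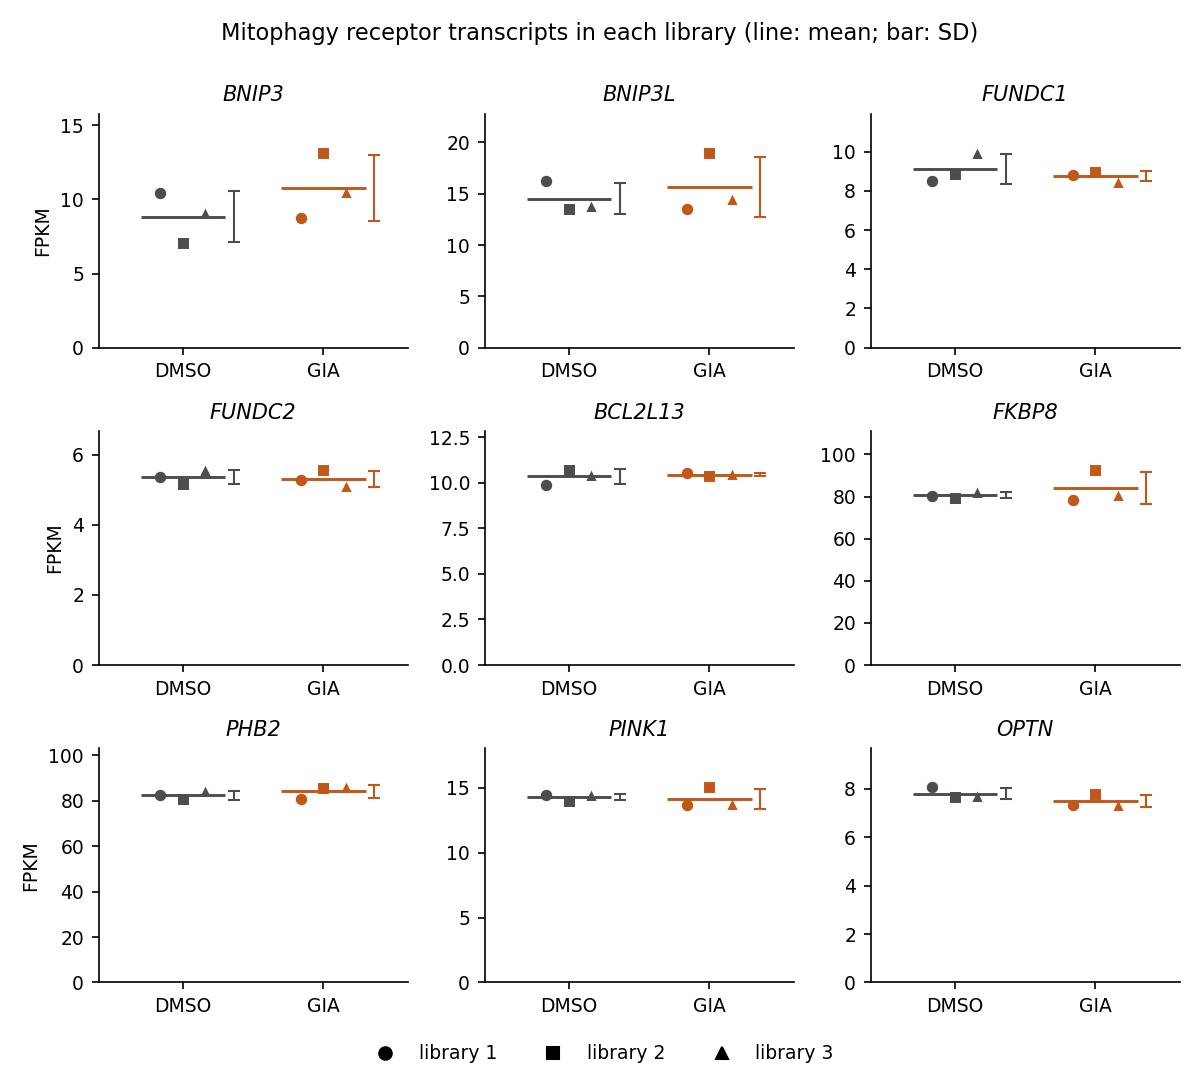
FPKM of the 9 receptor transcripts in each library, by group, with the library number as marker shape, the group mean as a horizontal line and the SD (n = 3) as a bar beside it. The square of library 2 is lowest for BNIP3 with DMSO (7.04) and highest with GIA (13.2), while BCL2L13 lies between 9.89 and 10.7 in all 6 libraries.

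The 2 paralogues stood out by their spread between libraries of the same group. For BNIP3 the within-group SD was 20.2% of the mean and for BNIP3L 15.4%, where the median over 7006 genes with a mean of at least 5 FPKM was 4.28%. These values lay at the 98.8th and 97.9th percentile of those genes. Among the other 7 receptors the same measure ranged from 2.89% for BCL2L13 to 6.70% for FKBP8. The ratio of the highest to the lowest library was 1.87 for BNIP3 and 1.41 for BNIP3L, and 1.07 (PHB2) to 1.18 (FKBP8) for the rest.

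The gene whose pattern over the 6 libraries was most like that of BNIP3 was IGFBP3, and CA9 came next. Likeness was measured as Pearson's r of log2(FPKM + 0.5) over 6 libraries, among 7005 other genes with a mean of at least 5 FPKM, as a description that libraries with a few extreme values can dominate. The 5 closest were IGFBP3, an insulin-like growth factor binding protein (r = 0.999, Spearman's rho 0.943), CA9, the hypoxia-induced carbonic anhydrase (0.993, rho 0.886), TGFB1 (0.991, rho 0.943), LOX, which crosslinks collagen (0.990, rho 1.0), and the mucin MUC1 (0.987, rho 0.943). IGFBP3 had 8.95 FPKM in DMSO library 2 and 22.6 in GIA library 2, and CA9 4.17 and 32.8. With those 2 libraries left out, r over the remaining 4 was 0.993 for IGFBP3, 0.952 for CA9, 0.926 for TGFB1, 0.995 for LOX and 0.974 for MUC1. The 5 genes were picked by r over all 6 libraries, so a high r over the remaining 4 is partly built in. The share of all genes that reach such an r over those 4 was not computed. An r of at least 0.9 with BNIP3 was reached by 173 genes (2.47% of those compared) and by 0 of the other receptors. BNIP3L had r = 0.880 (rho 0.943), FKBP8 0.772, PHB2 0.765, PINK1 0.629, FUNDC2 0.480 and OPTN 0.250, and FUNDC1 and BCL2L13 had -0.15 and -0.55. Without libraries 2, r was 0.805 for BNIP3L, 0.285 for FKBP8, 0.495 for PHB2, 0.196 for PINK1 and 0.357 for OPTN. It was -0.64 for FUNDC1 and -0.60 for BCL2L13, and for FUNDC2 it changed sign to -0.47.

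Of 12 genes listed as induced through HIFs, 10 were highest in GIA library 2 and 8 lowest in DMSO library 2. Of the 8 listed genes with a mean of at least 5 FPKM, 6 were highest in GIA library 2 and 5 lowest in DMSO library 2, against 27.9% and 15.5% of all 7006 genes at that level. An r of at least 0.9 with BNIP3 was reached by 4 of the 8, against 2.47% of the genes compared. Without libraries 2 it was reached by 2 of the 8, CA9 and NDRG1. The share over all genes was not computed for the remaining 4 libraries, so these 2 have nothing to be set against. Over those 4 libraries r fell to 0.783 for P4HA1, which modifies collagen, and to 0.596 for the glucose transporter SLC2A1. For VEGFA it fell from 0.887 to -0.06. CA9, NDRG1, SLC2A1, PFKFB3 and ADM are named from this list after their values were seen. The growth-arrest gene NDRG1 had 14.2 FPKM in DMSO library 2, 31.6 in GIA library 2 and 17.9 and 20.9 in the other GIA libraries. Not all of the list followed BNIP3: the glycolytic regulator PFKFB3 had r = -0.89, which was 0.07 without libraries 2, and the peptide hormone gene ADM had -0.16 and -0.17. Both were lowest in GIA library 2. DDIT4, an inhibitor of mTOR signalling, had a log2 fold change of 0.05 (SE 0.05) and P4HA1 0.11 (SE 0.06). VEGFA, the angiogenic factor, had 14.0 to 15.5 FPKM with DMSO and 16.1 to 17.5 with GIA, the only listed gene whose groups did not overlap, and was not called (edgeR log2 0.15, SE 0.05, adjusted p = 0.875). In the list 0 of 12 were called higher and 0 lower, 10 fold changes were positive, and the median was 0.12 against 0.00038 over all genes. The median deviation of the 12 genes from their 6-library mean, on the log2 scale, was -0.15 in DMSO library 2, 0.23 in GIA library 2 and between -0.04 and 0.02 in the other 4. For BNIP3 the same deviations were -0.45, 0.45 and -0.14 to 0.12.

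**Figure D3:**
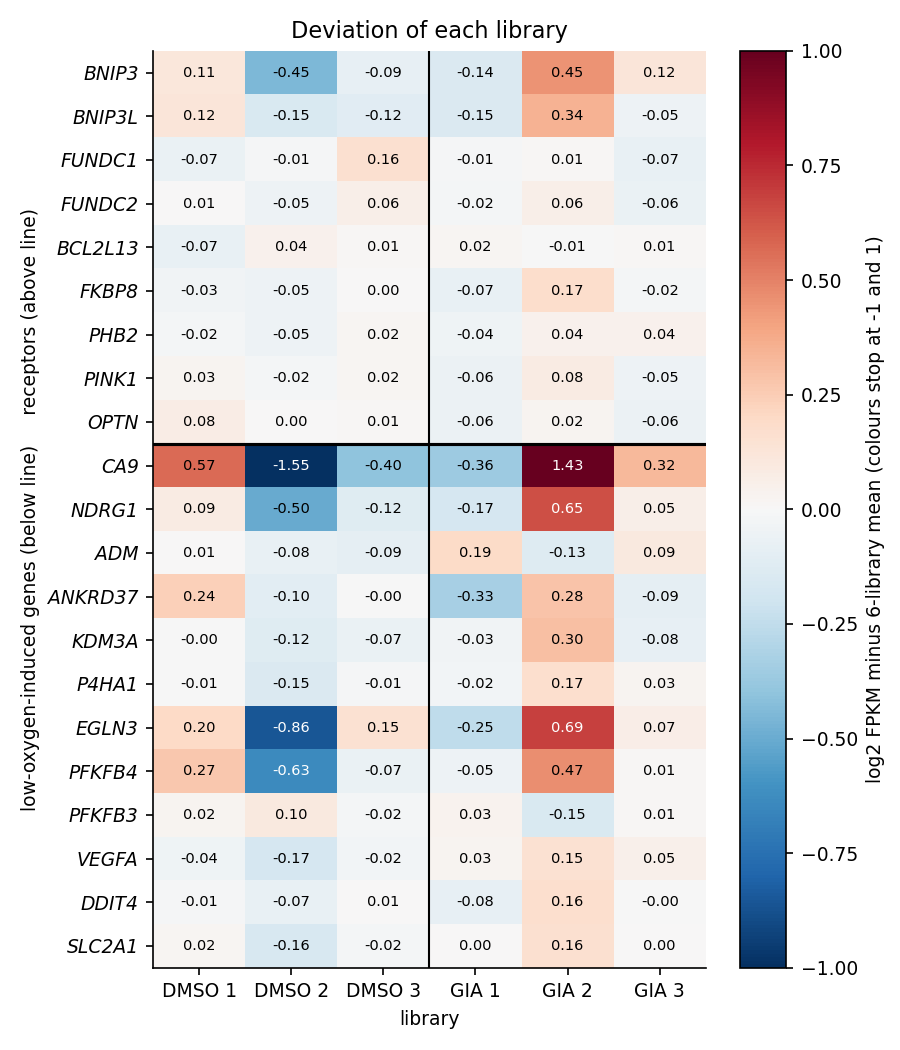
Deviation of log2 FPKM from the 6-library mean for the 9 receptors (above the line) and 12 low-oxygen-induced genes (below it), by library. DMSO library 2 and GIA library 2 stand apart in opposite directions for BNIP3 (-0.45 and 0.45) and CA9 (4.17 and 32.8 FPKM), and not for FUNDC1 (8.84 and 8.97 FPKM).

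FUNDC1 is an outer-membrane receptor known from low-oxygen mitophagy, and FUNDC2 is its relative. The within-group SD was 6.38% of the mean for FUNDC1, at the 76.8th percentile of genes with at least 5 FPKM, and 4.08% for FUNDC2. FUNDC1 (chromosome X, 44523639 to 44542859) had 8.49, 8.84 and 9.95 FPKM with DMSO and 8.83, 8.97 and 8.47 with GIA. DMSO library 3 was highest, and the other 5 lay between 8.47 and 8.97. GIA over DMSO gave log2 -0.06 (SE 0.09, interval -0.27 to 0.15), and 0.011 when DMSO library 3 was left out. FUNDC2 (chromosome X, 155025980 to 155060304) had 5.35, 5.15 and 5.56 FPKM with DMSO and 5.27, 5.55 and 5.10 with GIA, so the groups overlapped throughout. For FUNDC2 the log2 difference was -0.02 (SE 0.05, interval -0.12 to 0.09).

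BCL2L13 and FKBP8 are outer-membrane proteins, the first a BCL2 relative regarded as the mammalian counterpart of yeast Atg32 and the second an anchored immunophilin that binds BCL2. BCL2L13 (chromosome 22, 17628855 to 17730855) had 9.89, 10.7 and 10.5 FPKM with DMSO and 10.5, 10.3 and 10.5 with GIA. The 3 GIA values lay inside the DMSO range, and GIA over DMSO was 0.01 in log2 (SE 0.04, interval -0.08 to 0.10). FKBP8 (chromosome 19, 18531751 to 18544077) had 80.3, 79.4 and 82.3 FPKM with DMSO and 78.2, 92.6 and 80.9 with GIA. GIA library 2 was again the highest and GIA library 1 the lowest. FKBP8 had a log2 difference of 0.05 (SE 0.06, interval -0.07 to 0.18), which was -0.018 when GIA library 2 was left out.

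PHB2, the inner-membrane receptor (chromosome 12, 6965327 to 6970751), had 82.3, 80.6 and 84.5 FPKM with DMSO and 80.8, 85.7 and 85.8 with GIA. The groups overlapped, with a log2 difference of 0.03 (SE 0.04, interval -0.06 to 0.11). PHB, the other subunit of the prohibitin ring, had 65.8, 65.7 and 63.4 FPKM with DMSO and 61.7, 59.7 and 61.5 with GIA. Each GIA value of PHB was below each DMSO value, with a log2 difference of -0.10 (SE 0.03, interval -0.17 to -0.02), and it did not pass (edgeR adjusted p = 0.875). Whether PHB and PHB2 differed in their response was not tested.

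PINK1, the damage-sensing kinase (chromosome 1, 20633458 to 20651511), had 14.5, 14.0 and 14.4 FPKM with DMSO and 13.7, 15.0 and 13.8 with GIA. GIA library 2 was highest and the other GIA libraries lowest, and GIA over DMSO was -0.02 in log2 (SE 0.04, interval -0.12 to 0.08). Its antisense gene PINK1-AS overlaps 8855 of the 18054 bases that PINK1 spans. PINK1-AS had 2.70, 3.05 and 3.00 FPKM with DMSO and 3.43, 3.40 and 3.36 with GIA. Its groups did not overlap, and the difference of 0.22 in log2 (SE 0.08, interval 0.04 to 0.40) did not pass (edgeR unadjusted p = 0.0244, adjusted p = 0.875). PINK1-AS was singled out after its values were seen. The kit kept strand, per the labels, but whether the counting used it is not stated, so reads of PINK1 and PINK1-AS may not have been told apart. OPTN, the ubiquitin-binding adaptor (chromosome 10, 13099449 to 13138308), had 8.05, 7.64 and 7.70 FPKM with DMSO and 7.33, 7.76 and 7.35 with GIA, or -0.06 in log2 for GIA over DMSO (SE 0.05, interval -0.17 to 0.05). GIA library 2 lay within the DMSO range and the other GIA libraries below it.

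By level, PHB2 and FKBP8 were the most abundant receptors and FUNDC2 the least. Deposited FPKM averaged 83.3 for PHB2 and 82.3 for FKBP8, with overlapping ranges over the 6 libraries. BNIP3L (15.1) and PINK1 (14.2) followed, also overlapping. Then came BCL2L13 (10.4), BNIP3 (9.81) and FUNDC1 (8.93), whose ranges overlapped each other, and OPTN (7.64), which overlapped BNIP3 but not FUNDC1. FUNDC2 (5.33, at most 5.56) lay below every other receptor in every library.

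This order depends on the gene length behind FPKM. The length implied by count and FPKM matched the merged length of all annotated exons (GENCODE release 29) within 5% for 84.3% of 13289 genes, after scaling to the median, and the longest transcript for 12.2%. Among the receptors only FUNDC1 lay outside that 5%, with an implied length of 0.899 times the merged exons, so its level per transcript is less certain. For BNIP3 the merged exons span 5325 bases, including a retained-intron transcript, and the principal coding transcript 2861. Per kilobase of that transcript, an alternative chosen after the data were seen that assumes all reads come from it, BNIP3 had 18.3, close to 18.0 for BNIP3L, where FPKM gave 9.81 and 15.1. BCL2L13 (7662 merged bases, 2992 in its principal transcript) moved from 10.4 to 26.6 and PINK1 from 14.2 to 25.9, so that both came to lie above BNIP3L. PHB2 (137) and FKBP8 (129) stayed highest and FUNDC2 (8.47) lowest. The length is the same in every library, so the comparison of GIA with DMSO does not depend on it.

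**Figure D4:**
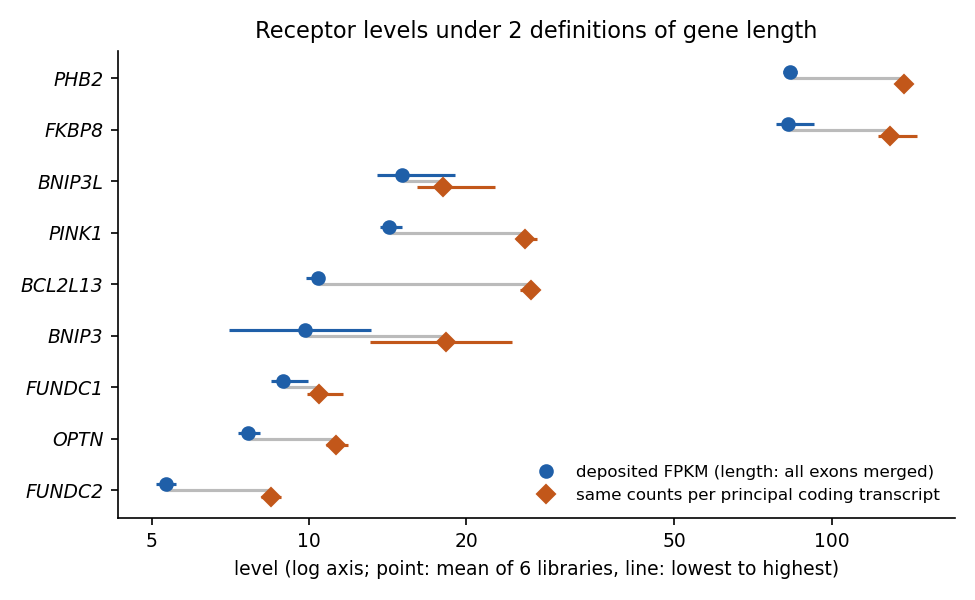
Mean level of each receptor over 6 libraries on a log axis, as deposited FPKM (circles) and per kilobase of the principal coding transcript (diamonds), with lines from the lowest to the highest library. BNIP3 moves from 9.81 to 18.3 and BNIP3L from 15.1 to 18.0, while PHB2 and FKBP8 stay on top.

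BNIP3 has many processed copies in the genome, and reads from a copy and its parent can be hard to separate. The 12 BNIP3 pseudogenes in the table summed to 78 to 125 counts per library, or 1.75% to 3.71% of the BNIP3 count. BNIP3P11 held the most, with 1.61 to 2.21 FPKM with DMSO and 1.25 to 1.95 with GIA, and a log2 fold change of -0.40 (SE 0.26). The 3 FUNDC2 pseudogenes held 2 to 12 counts, at most 0.288% of the FUNDC2 count.

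No tested transcript was called in the lists of genes that work with the receptors. Groups without overlap, pointed out for single genes above and below, occurred in 11.2% of all tested genes. In the PINK1-parkin arm and its control, 15 of 16 listed symbols had a row and 15 were tested, with 0 higher, 0 lower and a median log2 fold change of -0.02. The import receptor TOMM20 averaged 103 ± 1.24 FPKM in the DMSO libraries and 101 ± 4.11 in the GIA libraries (mean ± SD, n = 3). The ubiquitin ligase HUWE1 had 28.2 ± 0.250 and 29.3 ± 0.486 FPKM, with no overlap between groups and a log2 fold change of 0.05 (SE 0.03). Of 6 ubiquitin-binding adaptors and their kinase 0 were called, with a median of 0.02. SQSTM1 (p62) encodes an adaptor whose protein is itself degraded by autophagy, and only its RNA was measured here. SQSTM1 had 138, 149 and 145 FPKM with DMSO and 149, 95.7 and 134 with GIA. GIA library 2, highest for BNIP3, was lowest for SQSTM1, and the log2 fold change was -0.19 (SE 0.13).

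Of 7 listed genes for the ATG8 proteins that receptors bind, 5 were tested and 0 called, with a median of 0.03. GABARAPL1 had 14.8 to 16.7 FPKM with DMSO and 15.3, 19.5 and 17.2 with GIA, highest in GIA library 2, and MAP1LC3B stayed between 16.4 and 17.1 in all 6. Of 10 listed genes for kinases, phosphatases and ligase parts that act on receptors, 9 were tested and 0 called, with a median of -0.06. ULK1, the kinase that starts autophagy, had 12.7 ± 1.13 FPKM with DMSO and 14.4 ± 1.66 with GIA (log2 0.18, SE 0.08), and FBXL4, part of a ligase that limits BNIP3 and BNIP3L, had 2.83 ± 0.0651 and 2.59 ± 0.205 (log2 -0.13, SE 0.07). Among 19 autophagosome genes 0 were called (median -0.0045), with ATG2A at log2 0.10 (SE 0.05).

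Of 10 genes of mitochondrial fission, fusion and transport 0 were called (median -0.0077). MFN2, a fusion protein of the outer membrane, had 17.8, 18.0 and 17.7 FPKM with DMSO and 17.1, 15.7 and 16.2 with GIA. Its groups did not overlap, and its difference of -0.12 in log2 (SE 0.04, interval -0.22 to -0.03) did not pass (edgeR adjusted p = 0.875). MIEF1, which recruits the fission protein DNM1L, had -0.11 (SE 0.05), also without overlap, and DNM1L itself 0.01 (SE 0.04). The 7 other proteins reported in mitophagy, PHB among them, also had 0 calls, with a median of -0.02 and the outer-membrane channel VDAC1 at -0.02.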

How the data were processed

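The authors deposited a table with an FPKM and an estimated count for each gene and library, per the file headers. Tools named in the submitters' processing notes are, with no role or order given, HISAT2 2.2.1, StringTie 2.1.6, cutadapt, FastQC 0.10.1 and DESeq2 1.22.2; the build is GRCh38 (hg38), and no annotation release is stated. Low counts pile up at 4 (6798 values, against 4183 at 3 and 2499 at 5), so 1 fragment may be worth about 4 of the deposited counts. They are whole, so rounding changed nothing. Libraries were matched to columns by title.

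Estimated counts were tested with edgeR 4.0.16 (R 4.3.3; quasi-likelihood, two-sided, TMM factors 0.997 to 1.01, no covariate) on genes whose mean FPKM reached 0.5. The threshold was a Benjamini-Hochberg adjusted p under 0.05 over 13721 genes. Standard errors were derived from each fold change and F statistic, for which the spread of each gene is moderated toward that of other genes. Alternatives used DESeq2 1.42.0 and limma 3.58.1. Of 29844 gene IDs found in GENCODE 29, 59.8% had the same start and end there, so its lengths are approximate. Members and lists were chosen with earlier results of these data known. List genes named are the 2 of highest mean FPKM and the 2 of smallest p, of which some are left out; genes outside this rule were chosen after their values were seen, and PTPRC and other markers follow a fixed marker list.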

Additional observations from a re-analysis of the deposited data

How the results depend on the processing

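No receptor was called under any of the 17 alternatives. PHB2 and OPTN kept their sign in each, and BNIP3 in 16 of 17, reversing only with both libraries numbered 2 left out. FUNDC1, BCL2L13 and PINK1 also kept theirs in 16, and BNIP3L, FUNDC2 and FKBP8 in 15. The 10 alternatives that kept all libraries also kept the sign of all 9, with BNIP3 between 0.26 and 0.29. Leaving out 1 library reversed BCL2L13 (-0.021, range to 0.037), FUNDC1 (0.011, range from -0.10), FUNDC2 (0.011 without DMSO library 3 and 0.0089 without GIA library 3, range from -0.045), PINK1 (0.0045, range from -0.059), BNIP3L (-0.049, range to 0.20) and FKBP8 (-0.018, range to 0.10). With both libraries numbered 2 left out, BNIP3 had -0.018, BNIP3L -0.10 and FKBP8 -0.028. Over all genes 0 to 5 were called without a single library and 4 without both libraries numbered 2; the cause was not tested. At an unadjusted p under 0.05 DESeq2 had 651 genes, limma 670 and edgeR 630, and each called 0.

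With the replicate number as a replicate block 3 genes were called, none a receptor, and BNIP3 had 0.28. Same-numbered libraries had deviations correlated at 0.0519, 0.0334 and 0.0966, and differently numbered ones at -0.0860 to 0.0349. The labels do not say that a shared number pairs libraries, so the main fit had no block. Whether they are paired was not tested. The difference in the BNIP3 to BNIP3L ratio kept its direction in all settings (0.08 to 0.25). BNIP3 had 2332 to 5196 estimated counts per library, and FUNDC1, the receptor with the fewest, 651 to 872. How far depth limits either was not tested.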
